A study of Mus musculus with 4 samples.

Results

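The genes described here build or regulate the junctions between epithelial cells, and they were followed in thymospheres, the free-floating aggregates that form when cells of a dissociated thymus are cultured in dishes to which they cannot attach. They are 37 genes named in a list of desmosome, cornified envelope, adherens junction and tight junction genes, out of 21154 mouse genes with at least 1 named probe on the array, and all 37 were matched to a probe. Adult spheres came from C57Bl6/N mice 5 to 6 weeks old and embryonic spheres from C57Bl6/N embryos at embryonic day 14.5. Both were grown for 7 days, with fresh medium on day 5, in a medium that held EGF, bFGF, insulin, hydrocortisone and the B27 supplement. Each group had 2 samples, each on its own 1-colour array, and 25 ng of total RNA was labelled per sample. Spheres were collected on filters, which removes remaining single cells, and lysed whole. The labels describe them as colonies of thymic epithelial stem cells, and each array measured all the cells a sphere held. A lower signal from fewer epithelial cells and one from less RNA per epithelial cell cannot be told apart in such samples. The labels speak of biological as well as technical replicates without assigning them to arrays, so the p-values cover no more than the spread among these arrays, which may be technical.

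Epithelial cells are held together by several kinds of contact. At adherens junctions, cadherins of neighbouring cells bind each other outside the cell and catenins inside it, which connect them to actin. At desmosomes, the cadherins of the desmoglein and desmocollin families are coupled through plakoglobin, plakophilins and desmoplakin to keratin filaments. Tight junctions seal the space between cells, with claudins and the occludin family as membrane proteins and ZO proteins and cingulin as the layer beneath them. Periplakin and envoplakin are related to desmoplakin and become part of the cornified envelope of squamous epithelia. In the thymus, epithelial cells form an open meshwork rather than a sheet, and keratinising whorls called Hassall's corpuscles lie in the medulla.

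Promoters of these genes are shown because E-boxes with the letters CACCTG, to which the repressors Snail and Zeb bind, are a known feature of the E-cadherin gene. The promoter table, from RefSeq on build GRCm38.p6, held 20 of the 37 genes with 28 promoters, and the 250 bases before each start were searched for CACCTG on both strands. Cdh1, the E-cadherin gene itself, was not among the 20, and neither were Cdh3, Perp, Pkp1, Ppl and Evpl. These letters (or CAGGTG on the printed strand) were present in 42.9% of the 28 promoters, against 16.3% of the 13723 promoters of tested genes and 17.2% of all 32851 promoters. Counted by gene, 10 of the 20 had a match, and so did 2065 of the 10870 tested genes in the table. Of the 13 genes with a promoter that were called lower in adult spheres 5 had a match, and so had all 3 that were tested and not called, namely Epcam, Cldn4 and Cldn6. The GC box GGGCGG, counted in the same way on both strands, occurred for 18 of the 20 genes (90.0%), against 58.0% of the tested genes. The letters TGANTCA, the usual AP-1 site, were present on either strand for 2 of the 20 genes (6.20% of the tested genes) and TATAAA for 2 (9.92%). A match describes letters in this window and is not a measured binding site. Printed are the promoters with the most matches (Crb3 and Spint2), those of Cldn7, Epcam and Cldn4, and that of Tjp1, which had none. Capitals mark CACCTG or CAGGTG, and each sequence runs 5′ to 3′ on the gene's strand and ends at the last base before the start.
Crb3, chr17:57061951-57062200, plus strand, GRCm38.p6: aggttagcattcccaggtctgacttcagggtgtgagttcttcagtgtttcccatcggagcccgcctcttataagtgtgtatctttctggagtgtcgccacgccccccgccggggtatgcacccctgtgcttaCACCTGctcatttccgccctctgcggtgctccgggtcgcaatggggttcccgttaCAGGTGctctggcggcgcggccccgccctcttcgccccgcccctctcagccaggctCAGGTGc
Spint2, chr7:29281978-29282227, minus strand, GRCm38.p6: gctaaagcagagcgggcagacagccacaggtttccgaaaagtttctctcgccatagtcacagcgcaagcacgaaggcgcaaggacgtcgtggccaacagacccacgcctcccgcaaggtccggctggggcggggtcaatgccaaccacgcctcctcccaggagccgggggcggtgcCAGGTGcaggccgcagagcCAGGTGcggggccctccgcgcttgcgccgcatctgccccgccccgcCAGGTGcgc
Cldn7, chr11:69965171-69965420, plus strand, GRCm38.p6: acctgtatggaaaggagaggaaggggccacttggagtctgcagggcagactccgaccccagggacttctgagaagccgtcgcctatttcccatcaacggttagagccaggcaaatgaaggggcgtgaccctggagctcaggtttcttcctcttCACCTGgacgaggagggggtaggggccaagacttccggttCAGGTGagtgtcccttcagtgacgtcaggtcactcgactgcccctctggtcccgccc
Epcam, chr17:87635729-87635978, plus strand, GRCm38.p6: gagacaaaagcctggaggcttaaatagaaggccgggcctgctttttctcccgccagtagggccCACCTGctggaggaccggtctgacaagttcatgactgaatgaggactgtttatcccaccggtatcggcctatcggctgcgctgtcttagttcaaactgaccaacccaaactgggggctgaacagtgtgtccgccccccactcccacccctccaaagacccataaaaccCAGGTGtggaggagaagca
Cldn4, chr5:134946935-134947184, minus strand, GRCm38.p6: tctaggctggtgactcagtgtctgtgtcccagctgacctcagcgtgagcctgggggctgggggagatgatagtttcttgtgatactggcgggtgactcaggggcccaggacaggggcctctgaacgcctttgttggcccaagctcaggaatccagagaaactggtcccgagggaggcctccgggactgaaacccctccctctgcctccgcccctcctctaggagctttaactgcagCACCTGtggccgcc
Tjp1, chr7:65371245-65371494, minus strand, GRCm38.p6: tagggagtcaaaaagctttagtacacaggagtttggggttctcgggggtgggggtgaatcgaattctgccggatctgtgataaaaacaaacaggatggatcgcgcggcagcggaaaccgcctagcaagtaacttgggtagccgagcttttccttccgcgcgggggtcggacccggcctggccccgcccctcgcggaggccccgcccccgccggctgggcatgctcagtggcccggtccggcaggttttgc

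The 4 arrays lay on 1 slide. The share of spots well above background was 71.6% and 49.6% for the adult arrays, against 48.3% and 35.7% for the embryonic ones, and no spot was saturated. Values below are log2 of the processed signal relative to the array's 75th percentile, so 0 means a signal equal to that percentile, and a level of one probe is not compared with that of another. Differences are adult minus embryonic. Of 13667 genes tested with limma, 4927 (36.1%) were called lower in adult spheres and 2388 (17.5%) higher, at an adjusted p under 0.05, which is 53.5% in either direction. The median difference of all tested genes was -0.79, which depended on the scaling, and differences of single genes are read against it. The 1503 probes of odorant and other chemosensory receptor genes, mostly restricted to sensory cells, were well above background for 51.4% and 23.2% on adult arrays 1 and 2 and for 6.12% and 2.26% on embryonic arrays 1 and 2.

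Junction genes were mostly lower in adult than in embryonic spheres. Of the 37, 33 passed the filter on dim probes, which keeps a gene if adult or embryonic spheres gave signal well above background on both of their arrays. Of these 33, 25 were called lower in adult spheres, beside 36.1% of all tested genes, and 1 was called higher, beside 17.5%. The greatest differences were those of the plakin genes Ppl (-4.56) and Evpl (-4.37), of the tight junction gene Cgn (-3.66) and of the desmosomal gene Perp (-3.29). The exception was the desmocollin gene Dsc3, dim on both embryonic arrays and higher in adult spheres by at least 4.88-fold. This bound leaves out the error of the means. The median difference of the 33 genes was -1.70, against -0.79 for all tested genes. A gene that passed the filter through 1 group alone was kept partly for being dimmer in the other, so the 25 junction genes with signal on all 4 arrays are given too. Of them 19 were called lower, beside 43.7% of the 9626 genes with such signal, and 0 higher, beside 2.36%, in limma, also at an unadjusted p under 0.05. Here their median was -1.63, against -0.97 for those genes.

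The arrays of the 2 groups did not overlap for 29 junction genes that were lower in adult spheres, beside 61.6% of all genes measured on the 4 arrays, and for 1 that was higher, beside 22.5%. On the scale where the tested genes of each array have a median of 0, 12 of the 33 were called lower (7.62% of all genes) and 1 higher (20.3%). The 12 were Ppl, Evpl, Cgn, Perp, Pkp1, Marveld3, Dsp, Cldn8, Cdh3, Ctnna1, Cdh1 and Tjp1, and the gene called higher was again Dsc3. Of these, Ppl, Marveld3, Cldn8 and Cdh3 passed the filter through the embryonic arrays alone, and Dsc3 through the adult arrays alone. The same genes, with Marveld2 and Crb3 (embryonic arrays alone), are among those without overlap. Both counts thus rest in part on the filter. Without adult array 1 or adult array 2 the spread came from the embryonic arrays alone, and the single adult array was assumed to vary like them. No gene at all was then called in limma. The junction gene median was -1.96 and -1.47, against -0.90 and -0.67 for all tested genes. Without embryonic array 1 or embryonic array 2, the spread came from the adult arrays. The junction gene median was then -2.05 and -1.50, against -0.71 and -0.84 for all tested genes.

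**Figure D1:**
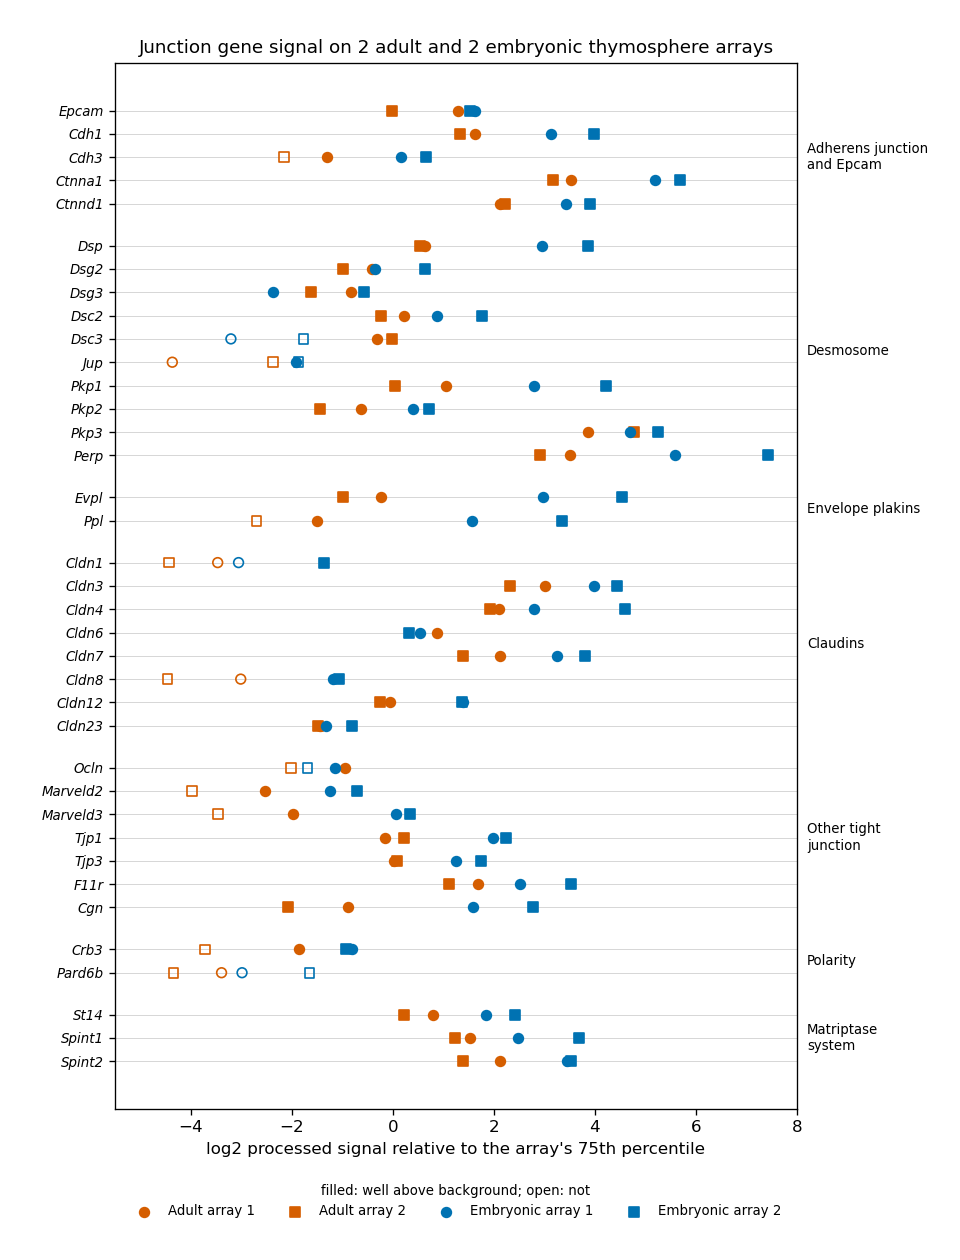
Log2 processed signal of the 37 junction genes relative to each array's 75th percentile (x axis), by gene (rows) and role (right), on 2 adult (orange) and 2 embryonic (blue) arrays. Filled points are well above background and open ones are not. Adult points lie left of embryonic points in most rows, and Dsc3 shows the opposite order.

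Of the adherens junction genes and Epcam, 4 of 5 were called lower in adult spheres, beside 36.1% of all tested genes. On the scale centred on the tested genes 3 were lower (7.62% of all genes). Cdh1, which encodes E-cadherin, the main adhesion molecule of epithelial adherens junctions, had log2 signals of 1.63 and 1.33 on the adult arrays, against 3.13 and 3.99 on the embryonic arrays. Both adult values lay below both embryonic ones, a 4.23-fold lower signal in adult spheres (log2 difference -2.08, SE 0.40, adjusted p = 0.0136). P-cadherin, found in basal cells of stratified epithelia, is the product of Cdh3, whose signals were -1.30 and -2.16 in adult and 0.16 and 0.66 in embryonic spheres. Its difference of -2.13 (SE 0.42, adjusted p = 0.0141) included an adult array 2 value that was not well above background. Catenins moved the same way as the cadherins. Ctnna1, for alpha-catenin, which connects the cadherin complex to actin, had 3.52 and 3.16 in adult spheres and 5.18 and 5.69 in embryonic spheres, a difference of -2.09 (SE 0.35, adjusted p = 0.0108). Ctnnd1, for p120-catenin, which keeps cadherins at the cell surface, had 2.12 and 2.22 in adult and 3.43 and 3.90 in embryonic spheres (difference -1.49, SE 0.33, adjusted p = 0.0176). Alpha-catenin and p120-catenin also occur in cells that are not epithelial. The surface protein EpCAM is a general marker of epithelia and of thymic epithelial cells. Epcam signals were 1.29 and -0.01 in adult spheres, against 1.62 and 1.53 in embryonic spheres, and the difference of -0.94 (SE 0.49, 95% interval -2.17 to 0.30, adjusted p = 0.15) did not pass the test. Its adult arrays differed from each other by more than its embryonic arrays, and the groups did not overlap.

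In the desmosome, 5 of 9 tested genes were called lower in adult spheres and 1, Dsc3, higher, beside 36.1% and 17.5% of all tested genes. On the scale centred on the tested genes 3 were lower and 1 higher (7.62% and 20.3% of all genes). Perp, a small membrane protein that desmosomes of stratified epithelia need, had 3.52 and 2.92 in adult spheres and 5.59 and 7.43 in embryonic spheres, a 9.81-fold lower adult signal (difference -3.29, SE 0.65, adjusted p = 0.0142). Pkp1, a plakophilin of the upper layers of stratified epithelia, had 1.06 and 0.04 in adult and 2.79 and 4.22 in embryonic spheres (difference -2.95, SE 0.61, adjusted p = 0.015). Desmoplakin, which anchors keratin filaments, is encoded by Dsp. It had 0.64 and 0.55 in adult spheres, against 2.95 and 3.87 in embryonic spheres, so the adult arrays were close to each other and well below both embryonic ones (difference -2.82, SE 0.41, adjusted p = 0.00909). Pkp2, which also serves heart desmosomes, had -0.64 and -1.44 in adult and 0.40 and 0.71 in embryonic spheres (difference -1.60, SE 0.39, adjusted p = 0.0229). Pkp3, present in most desmosomes, had 3.86 and 4.78 in adult and 4.69 and 5.25 in embryonic spheres. These overlap, and its difference of -0.65 (95% interval -1.76 to 0.45, adjusted p = 0.24) did not pass the test. Jup, for plakoglobin, which joins desmosomes as well as adherens junctions, was represented by 1 probe that was well above background on embryonic array 1 only (-4.37 and -2.38 in adult, -1.92 and -1.87 in embryonic spheres), and it was not tested.

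The 4 listed desmosomal cadherin genes, all on chromosome 18, did not share a direction. Dsc2, the most widely expressed desmocollin, had 0.23 and -0.23 in adult spheres, against 0.87 and 1.76 in embryonic spheres, and was called lower (difference -1.32, SE 0.42, adjusted p = 0.0458). Its partner Dsg2, the desmoglein of simple epithelia, had -0.42 and -0.99 in adult and -0.36 and 0.63 in embryonic spheres and did not pass the test (difference -0.84, 95% interval -1.98 to 0.30, adjusted p = 0.161). Dsg3, a desmoglein of basal cells in stratified epithelia, had -0.82 and -1.62 in adult and -2.37 and -0.57 in embryonic spheres. The embryonic arrays enclosed the adult ones, and the difference of 0.25 (95% interval -1.40 to 1.90, adjusted p = 0.754) did not pass the test and changed sign in 5 of 16 alternative settings. Dsc3, the desmocollin of basal cells in stratified epithelia, had -0.31 and -0.02 in adult spheres, against -3.21 and -1.77 in embryonic spheres, where neither array was well above background. Adult spheres thus had an at least 4.88-fold higher signal, with the lowest signal well above background on an array standing in for a dimmer value. That bound leaves out the error of the means. The fitted difference, with dim values as measured, was 2.32 (95% interval 0.99 to 3.66, adjusted p = 0.0191). With normexp background correction it was 0.93 (adjusted p = 0.0435). The other Dsc3 probe gave -1.44 and -3.63 in adult and -4.29 and -3.83 in embryonic spheres and was well above background on adult array 1 only. As with Dsc3, the sensory receptor probes were well above background more often on adult than on embryonic arrays. Their part in this difference was not tested.

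The plakin genes of the cornified envelope showed the greatest differences of the tested junction genes. Ppl, for periplakin, had -1.50 and -2.70 in adult spheres, against 1.56 and 3.36 in embryonic spheres, a 23.5-fold lower adult signal (difference -4.56, SE 0.72, adjusted p = 0.00984). Adult array 2 was not well above background for it. Evpl, for envoplakin, which pairs with periplakin, had -0.25 and -0.99 in adult and 2.98 and 4.54 in embryonic spheres, a 20.7-fold lower adult signal (difference -4.37, SE 0.60, adjusted p = 0.00849). Counted from the lowest difference among 13667 tested genes, Ppl was number 22 and Evpl number 28. Both were also higher on embryonic array 2 than on embryonic array 1, by 1.80 and 1.56 log2 units.

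**Figure D2:**
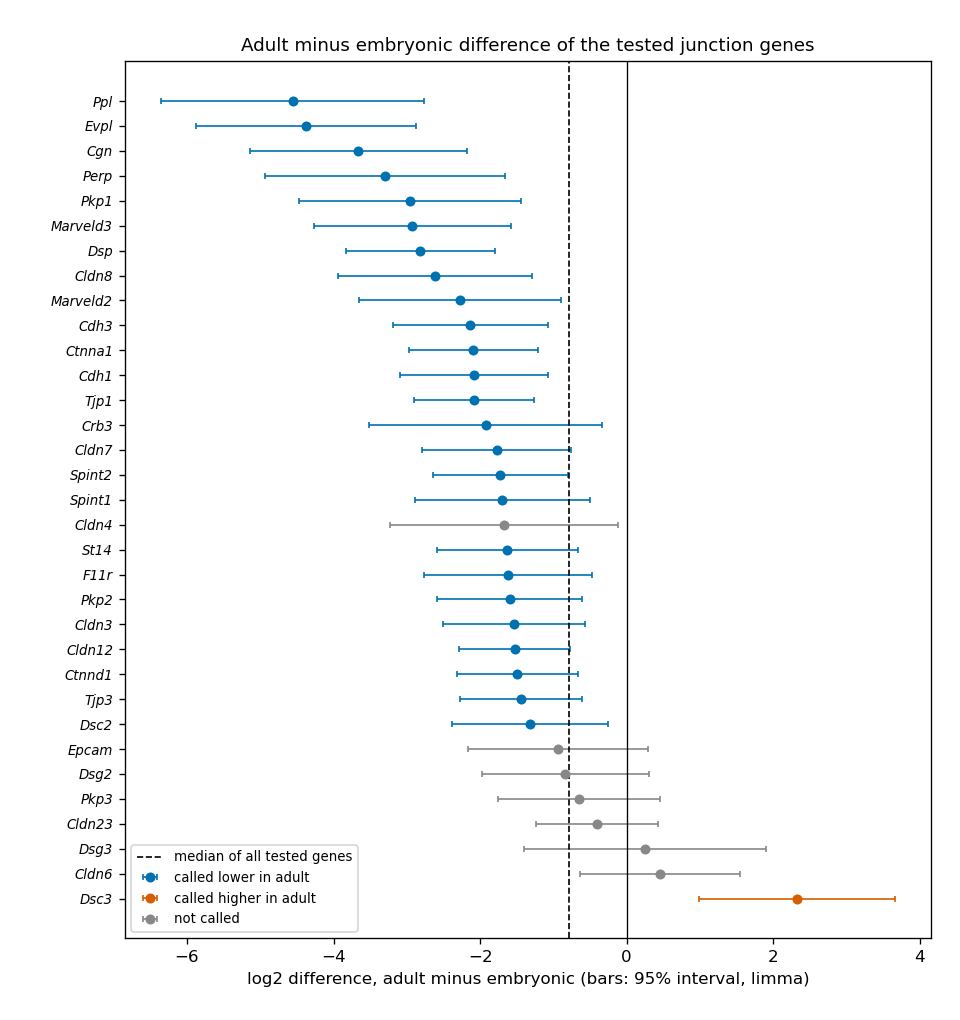
Log2 difference, adult minus embryonic (x axis), of the 33 tested junction genes (rows, sorted), with 95% intervals from limma. Values of Cldn8 and Dsc3 come from a group with no array well above background. Blue points were called lower and the orange point higher in adult spheres, grey points were not called, and the dashed line is the median of all tested genes at -0.79. Ppl and Evpl lie farthest to the left and Dsc3 is the one gene called to the right of 0.

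Among claudins, the proteins that set the permeability of tight junctions, 4 of 7 tested were called lower in adult spheres and none higher. Those shares were 36.1% and 17.5% over all tested genes. On the scale centred on the tested genes only 1 claudin gene, Cldn8, was lower (7.62% of all genes). Cldn3, a claudin that seals simple epithelia, had 3.01 and 2.33 in adult spheres, against 3.98 and 4.44 in embryonic spheres (difference -1.54, SE 0.39, adjusted p = 0.0238). Cldn7, which is also found along lateral membranes and binds EpCAM, had 2.11 and 1.39 in adult and 3.25 and 3.80 in embryonic spheres (difference -1.78, SE 0.40, adjusted p = 0.0188). Cldn12 had -0.05 and -0.26 in adult and 1.39 and 1.36 in embryonic spheres, with nearly the same signal on both arrays of each group (difference -1.53, SE 0.30, adjusted p = 0.0142). Cldn8, known from the distal tubule of the kidney, was not well above background on either adult array (-3.01 and -4.46) and had -1.19 and -1.07 in embryonic spheres. It was at least 3.27-fold lower in adult spheres, a bound that leaves out the error of the means. The fitted difference was -2.61 (95% interval -3.93 to -1.29, adjusted p = 0.0147). With normexp background correction that difference was -0.54 and did not pass the test (adjusted p = 0.153). Cldn4 had 2.11 and 1.92 in adult and 2.79 and 4.59 in embryonic spheres, and its wide embryonic spread went with a difference of -1.67 that did not pass the test (SE 0.62, adjusted p = 0.0661). Its second probe, which had 0.99 and 0.70 in adult and 2.22 and 3.69 in embryonic spheres, passed in a fit over all tested probes (difference -2.11, adjusted p = 0.0244). Cldn23 had -1.45 and -1.49 in adult and -1.32 and -0.81 in embryonic spheres (difference -0.40, 95% interval -1.24 to 0.43, adjusted p = 0.327). Cldn6, a claudin of embryonic epithelia, had 0.88 on adult array 1, an outlier spot left out on adult array 2, and 0.54 and 0.32 in embryonic spheres, so its difference of 0.45 (adjusted p = 0.379) rests on 3 arrays. Cldn1, the claudin of the epidermal barrier, was well above background on embryonic array 2 alone (-3.47 and -4.43 in adult, -3.06 and -1.36 in embryonic spheres) and was not tested.

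All 6 of the other tight junction genes tested were called lower in adult spheres, beside 36.1% of all tested genes. On the scale centred on the tested genes 3 were lower (7.62% of all genes). Cgn encodes cingulin, which connects tight junctions to actin and myosin, and it had -0.88 and -2.08 in adult spheres, against 1.58 and 2.78 in embryonic spheres. That is a 12.7-fold lower adult signal (difference -3.66, SE 0.59, adjusted p = 0.0102). Tjp1, for the scaffold ZO-1 that many cell types make, had -0.16 and 0.22 in adult and 1.98 and 2.24 in embryonic spheres (difference -2.08, SE 0.33, adjusted p = 0.00988). Tjp3, for the more epithelial scaffold ZO-3, had 0.03 and 0.08 in adult and 1.24 and 1.75 in embryonic spheres (difference -1.44, SE 0.33, adjusted p = 0.0197). F11r, for the adhesion molecule JAM-A, had 1.68 and 1.12 in adult and 2.51 and 3.52 in embryonic spheres (difference -1.62, SE 0.46, adjusted p = 0.0319). Both relatives of occludin were called lower, though the call of Marveld2 was not kept with normexp or on the scale centred on the tested genes. Marveld2, for tricellulin, which seals the points where several cells meet, had -2.53 and -3.97 in adult and -1.24 and -0.70 in embryonic spheres (difference -2.28, SE 0.55, adjusted p = 0.0217). Marveld3 had -1.99 and -3.46 in adult and 0.07 and 0.34 in embryonic spheres (difference -2.92, SE 0.54, adjusted p = 0.0126). For both, adult array 2 was not well above background. Ocln itself was well above background on array 1 of each group only (-0.95 and -2.02 in adult, -1.15 and -1.69 in embryonic spheres) and was not tested.

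Polarity genes place these junctions along the side of the cell. Crb3, for the apical membrane protein Crumbs3, had -1.87 and -3.72 in adult spheres, against -0.81 and -0.93 in embryonic spheres, and was called lower close to the threshold (difference -1.92, SE 0.64, adjusted p = 0.0487), with adult array 2 not well above background. Its second probe was not well above background on either adult array (-3.37 and -4.51) and had -1.64 and -1.37 in embryonic spheres. That probe passed in a limma fit over all tested probes (difference -2.43, adjusted p = 0.0128), with the dim adult values as measured. Pard6b, for a Par6 scaffold, was not well above background on any of the 4 arrays and was not tested. The surface protease matriptase, encoded by St14, and its inhibitors act at epithelial surfaces, where they influence junction and barrier formation, and all 3 genes were lower in adult spheres by a similar size. St14 had 0.79 and 0.21 in adult and 1.84 and 2.42 in embryonic spheres (difference -1.63, SE 0.39, adjusted p = 0.0206). For the inhibitor gene Spint1 the values were 1.52 and 1.24 in adult and 2.48 and 3.68 in embryonic spheres (difference -1.70, SE 0.48, adjusted p = 0.0315). Spint2, the other inhibitor, had 2.13 and 1.40 in adult and 3.44 and 3.53 in embryonic spheres (difference -1.72, SE 0.37, adjusted p = 0.0166). None of these 3 calls was kept on the scale centred on the tested genes (adjusted p = 0.0983, 0.154 and 0.0681).

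More than 1 probe was present for 10 of the 37 genes, and for 7 of these all probes differed in one direction. The exceptions were Dsp, Dsg3 and Spint1. The second Dsp probe was well above background on adult array 1 only and had -0.82 and -3.66 in adult and -3.09 and -1.74 in embryonic spheres. Spint1's second probe had 2.00 on adult array 1, no value on adult array 2, and 1.29 and 2.70 in embryonic spheres, a difference of 0.00 in the fit over probes. For Spint2, probes of different transcript accessions gave -1.72 and -1.63.

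Other junction components were lower in adult spheres in part, and their counts are read beside the 36.1% of all tested genes called lower and the 17.5% called higher. On the scale centred on the tested genes those shares were 7.62% and 20.3%. Of 11 further polarity genes tested, 10 were called lower and none higher, among them Patj (-2.40, SE 0.49), a partner of Crumbs, the kinase gene Prkci (-2.27, SE 0.39) and Pard6g (-1.95, SE 0.38). On the centred scale 3 of these 11 were lower and 1 higher. Of 18 further tight junction genes 9 were lower and 4 higher, and 3 lower and 5 higher on the scale centred on the tested genes. Cxadr, an adhesion molecule and virus receptor, changed by -2.39 (SE 0.32), Cldn9 by -3.31 (SE 0.56) and Ildr1, which recruits tricellulin, by -2.20 (SE 0.40). In the other direction Cldn10 was at least 11.4-fold and the endothelial claudin gene Cldn5 at least 3.19-fold higher in adult spheres, with both embryonic arrays dim for each, and Magi3 rose by 2.47 (SE 0.41). Of 17 further adherens junction genes 8 were lower and 2 higher, and 1 lower and 2 higher on the scale centred on the tested genes. Nectin4, an epithelial nectin, was at least 4.50-fold and Ctnnd2 at least 3.50-fold lower in adult spheres, and Ctnnal1 fell by 2.64 on the log2 scale (SE 0.63). For Ctnna2 the adult signal was higher by at least 2.65-fold, and for Cdh5, whose cadherin joins endothelial cells, by at least 2.62-fold, both again dim in embryonic spheres.

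The filaments and anchors to which junctions are tied moved in both directions, again to be read beside 36.1% lower and 17.5% higher among all tested genes. The keratin genes Krt19 (-4.33, SE 0.58), Krt5 (-3.26, SE 0.52) and Krt8 (-1.82, SE 0.40) fell, Krt14, a basal keratin gene, rose by 1.87 (SE 0.52), and the desmoglein gene Dsg1c was higher by at least 2.69-fold. In that list of desmosomal cadherin and keratin genes 4 of 6 tested were lower and 2 higher. Of 9 hemidesmosome genes 5 were lower and 1 higher, with the laminin gene Lamb3 (-1.82, SE 0.51) and the integrin gene Itgb4 (-1.62, SE 0.33) lower and Col17a1 at least 1.78-fold higher. Of 10 cornified envelope genes tested 3 were lower and 2 higher, shares near those of all tested genes. Spink5, a protease inhibitor gene of the skin barrier, was at least 12.2-fold lower, and Sbsn (-3.73, SE 0.56) and Cnfn (-2.57, SE 0.49) fell. Ivl, for the envelope precursor involucrin, rose by 2.79 (SE 0.41), and Sprr1b was higher by at least 6.18-fold. Among matriptase's relatives and substrates 4 of 8 were lower and 1 higher, with Hpn (-3.83, SE 0.64), Tmprss2 (-2.06, SE 0.46) and the receptor gene F2rl1 (at least 3.01-fold) lower and Hgfac at least 5.96-fold higher. Gap junction genes ran differently, with 2 of 9 lower (Gjc1 and Gja1) and 4 higher, among them Gja5 (at least 4.20-fold), Gja3 (at least 4.99-fold) and Gja4 (1.79, SE 0.47). On the scale centred on the tested genes, lower and higher counts were 2 and 2 in the desmosomal cadherin and keratin list and 0 and 1 for hemidesmosome genes. They were 3 and 3 for cornified envelope genes, 1 and 1 in the matriptase list and 1 and 5 for gap junction genes. Without that centring, the adjusted p of the genes named in this and the preceding paragraph lay between 0.00734 (Gja3) and 0.0316 (Lamb3).

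**Figure D3:**
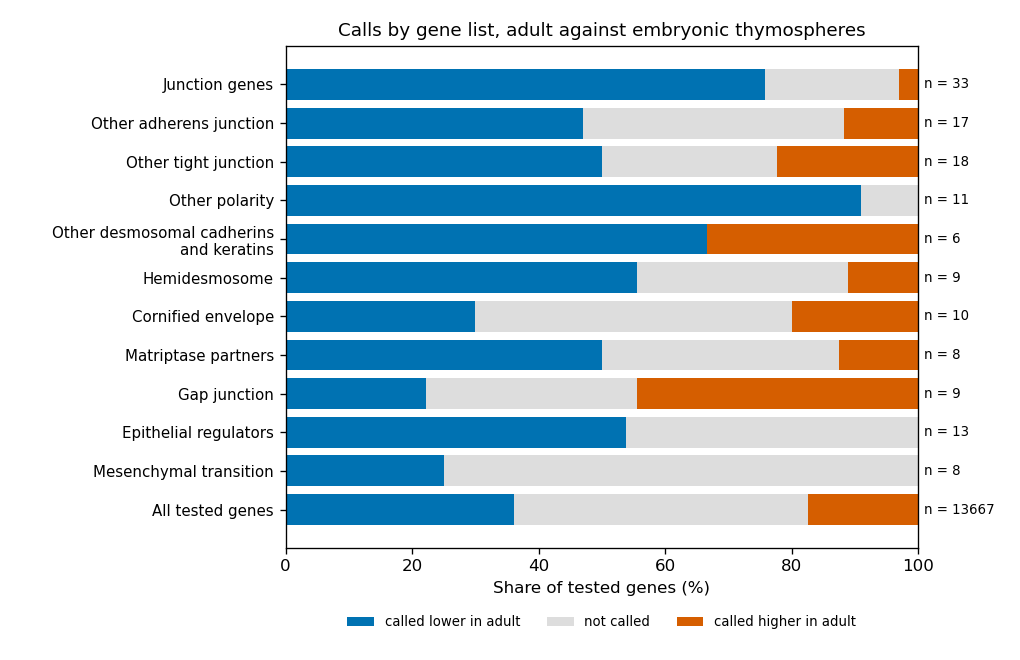
Share of tested genes in each list (x axis, percent) called lower in adult spheres (blue), not called (grey) or called higher (orange), with the number tested at the right. The junction genes and the other polarity genes have the widest blue bars, and all 13667 tested genes are at the bottom for comparison.

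Regulators of epithelial identity were lower in adult spheres or not called. Counts here too are read beside 36.1% lower and 17.5% higher among all tested genes. Of 13 tested, 7 were lower and none higher, with Elf3 (-3.65, SE 0.80, adjusted p = 0.0175), Klf5 (-3.08, SE 0.56, adjusted p = 0.0122) and the small GTPase gene Rab25 (-2.83, SE 0.57, adjusted p = 0.0146) changing most. Of 8 genes of epithelial to mesenchymal transition, 2 were lower and none higher in adult spheres, namely the repressor genes Snai2 (-1.54, SE 0.40, adjusted p = 0.0251) and Zeb1 (-1.22, SE 0.39, adjusted p = 0.0453). Neither call was kept on the scale centred on the tested genes (adjusted p = 0.139 and 0.349), nor with normexp or quantile normalization.

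Markers of the cells that the spheres could hold were measured beside the junction genes. Counts of called markers in this and the next paragraph are read beside 36.1% lower and 17.5% higher among all tested genes. In the thymic epithelial list 7 of 12 tested genes were lower and 1 higher in adult spheres. Foxn1, the defining factor of thymic epithelium, had -2.23 and -3.23 in adult spheres, the second not well above background, against -0.81 and -0.50 in embryonic spheres (adjusted p = 0.0157). Aire and Psmb11, which mark mature thymic epithelial cells, were well above background on adult array 1 only, and Psmb11 had no value on adult array 2. Trp63, a factor of basal epithelial cells, had a difference of -1.36 (SE 0.52, adjusted p = 0.0703). The summed level of the 15 thymic epithelial markers, as multiples of the array's 75th percentile, came to 207 and 118 in adult spheres, against 400 and 568 in embryonic spheres. Keratin probes carried most of it, and without Krt18 it was 56.0 and 32.2 in adult spheres, against 154 and 268 in embryonic spheres. The adult array 2 sums lack Ccl25 and Psmb11, which had no value there.

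Fibroblast markers were well above background throughout, 11 of 11 on 3 arrays and 10 of 11 on embryonic array 2, and their summed level was 428 and 426 on the adult arrays, against 812 and 467 on the embryonic arrays. Of the 11, 3 were lower in adult spheres, among them Pdgfra (-2.23, SE 0.35, adjusted p = 0.00981), and 1 was higher, while Col1a1 did not pass the test (-0.57, SE 0.36, adjusted p = 0.212). Of 9 endothelial markers tested 4 were higher and none lower in adult spheres, and Pecam1 had a difference of 1.03 (SE 0.44, adjusted p = 0.0961). The 11 on the array summed to 25.1 and 26.7 in adult and 21.5 and 31.1 in embryonic spheres, and without Kdr, the brightest, to 14.3 and 11.8 in adult and 6.05 and 5.79 in embryonic spheres. Of 8 blood cell markers tested 3, all macrophage genes, were lower in adult spheres, a share near the 36.1% of all tested genes. On the scale centred on the tested genes 0 were lower. The 12 on the array summed to 79.2 and 110 in adult and 114 and 115 in embryonic spheres (15.0 and 17.8 in adult and 39.5 and 33.4 in embryonic spheres without Itgam), and Ptprc was well above background on adult array 1 only. Of 8 muscle and heart markers, tissues that also build desmosomes, 4 were tested and 3 were higher in adult spheres, the summed level being 3.94 and 3.77 in adult and 1.63 and 1.12 in embryonic spheres. Myog, Myod1 and Ckm were not well above background on any array. All 3 muscle and heart genes called higher, and the endothelial genes Cdh5, Esam and Robo4, were dim on both embryonic arrays. Probes of chemosensory receptors were likewise well above background more often in adult spheres (51.4% and 23.2%, against 6.12% and 2.26% in embryonic spheres), and their part in these calls was not tested. The part of these cell types in the junction gene differences was not tested.

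Junction genes also separated the arrays within each group. On embryonic array 2, 29 of the 33 tested genes were higher than on embryonic array 1, with a median difference of 0.55, against 0.09 over all genes, of which 56.5% were higher on array 2. The difference exceeded 2-fold for 10 of the 33 (12.9% of all genes), with Perp (1.84), Ppl (1.80), Cldn4 (1.80) and Dsg3 (1.79) at the top. Epithelial regulators showed the same order in 13 of 13 genes (median 0.84), and fibroblast markers the opposite one, with 0 of 11 higher on embryonic array 2 (median -0.65). On adult array 2, 27 of the 32 with both values had a lower signal than on adult array 1 (median -0.59), against 65.0% of all genes (median -0.19). Thymic epithelial markers had a median of -0.92 in that direction and fibroblast markers of -0.03. These are values of single arrays and carry no test.

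**Figure D4:**
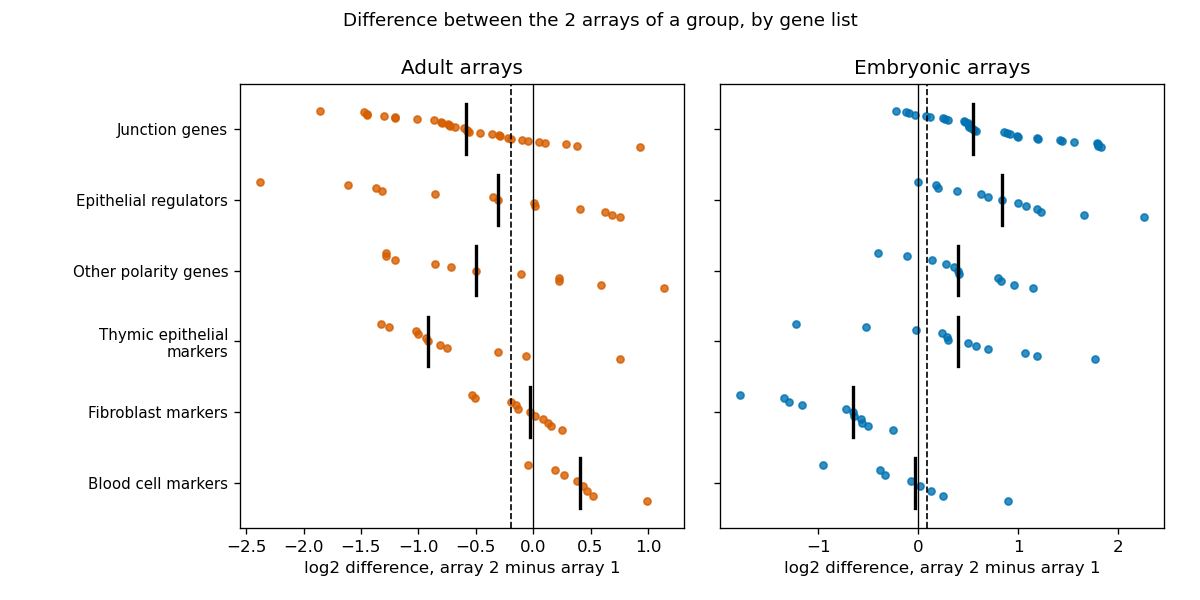
Log2 difference of array 2 minus array 1 (x axis) within the adult group (left) and within the embryonic group (right) for each tested gene of 6 lists (rows). Black bars are list medians and dashed lines the median of all genes. On the embryonic side junction genes lie mostly right of 0 (median 0.55) and all 11 fibroblast markers left of it (median -0.65).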

How the data were processed

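The scanner files hold intensity per spot, with background subtraction and spatial detrending done by the scanner software, per the file headers. The submitters' processing notes name Agilent Feature Extraction, version 10.7.3.1. A table of the authors' values, deposited beside them, also holds linear intensity. Its normalization and centring were not stated, and it served as an alternative.

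Signals were taken as log2 relative to each array's 75th percentile over non-control spots (132 and 66.0 on the adult arrays, 126 and 61.5 on the embryonic ones). Control and outlier spots were left out (outliers 185 and 2756 on the adult, 120 and 95 on the embryonic arrays), and spots of a probe were averaged. Of 55681 probes, 28026 were named through RefSeq accessions, without versions, with GRCm38.p6 used for names. A gene was represented by its brightest tested probe, after preferring probes well above background on all 4 arrays. Adult minus embryonic was estimated on all 4 arrays with lmFit and eBayes of limma 3.58.1 in R 4.3.3, without covariates, with Benjamini-Hochberg adjustment over 13667 genes. The fit was tested on simulated data. A group with no array well above background gives a bound, in which the array's lowest signal well above background replaces dimmer values. The bound leaves out the error of the means and holds for the scanner software's background subtraction only.

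The junction genes and the other gene lists were chosen with earlier results of these data known. All 37 genes are named, from other lists up to 3 called genes per direction, and a few markers whatever their values. A gene that this rule names is not reported here. Normexp used the median spot signal. Only 4 arrays limit the precision.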

Additional observations from a re-analysis of the deposited data

How the results depend on the processing

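The number of junction genes called lower in adult spheres, 25 of 33, stood beside 36.1% of all tested genes. It was 24 to 26 with an intensity trend, a robust prior, the mean of a gene's probes, the percentile over kept probes (chosen after seeing the data) or the replicate block. The share of all genes was then 33.8% (replicate block) to 44.7% (intensity trend). The number was 19 with normexp, beside 18.5% of all genes, and 19 with the deposited value table, beside 26.5%. It came to 13 with quantile normalization, 12 with centring on the tested genes, 8 of 37 with no filter on dim probes and 30 with centring on all probes. The number called higher was 0 with centring on all probes, with no filter and with signal asked on all 4 arrays, where 20 of 25 were lower, and 2 with the deposited table (Dsc3 and Cldn6). The median of the junction genes, -1.70, was -1.03 with normexp, -1.07 with quantile normalization, -2.88 with centring on all probes, -1.04 with centring on the tested genes and -0.96 with the deposited table. Minus the median of all genes, it was -1.34 to -0.61 in the 16 alternatives. Over all genes 7315 were called, against 3346 with normexp, 4856 with quantile normalization, 11527 with centring on all probes, 3817 with centring on the tested genes and 2719 with no filter. The share of calls that were lower in adult spheres, 67.4%, was 85.3% and 27.3% with the 2 centrings, 34.2% with no filter and 94.3% with signal asked on all 4 arrays. Leaving out 1 array gave 0 to 7543 called genes, 0 to 27 junction genes called lower, 0 to 1 called higher and a junction gene median of -2.05 to -1.47, with 0 in limma without either adult array, when the spread came from the embryonic arrays alone, while 6454 and 5528 genes passed an unadjusted p of 0.05. No called junction gene changed sign in any alternative. Signs changed only for Dsg3, Pkp3, Cldn23 and Cldn6, which were not called. What the replicate numbers stand for is not known here. Deviations of same-numbered arrays correlated at 0.07 over genes, on scaled values, where a difference in level common to a whole array is removed. Before scaling, the percentile signal was 132 and 126 on adult and embryonic array 1, against 66.0 and 61.5 on adult and embryonic array 2. Whether same-numbered arrays were handled together was not tested. With the replicate block 24 junction genes were lower and 1 higher. The causes of these shifts were not tested.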
